A study of Mus musculus with 12 samples.

Results

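The genes described here are 47 genes of mitosis and cytokinesis: the G2/M kinases and cyclins, the chromosomal passenger complex, the spindle checkpoint, the kinetochore, the spindle motors and the proteins of the central spindle. They were chosen by symbol, all 47 were found among the 54532 genes of the count table, and all 47 were among the 24642 genes that passed the cutoff on low counts. Their counts per mouse ran from 20 reads for Cdc25c to 4033 reads for Mki67, the lowest and the highest count of any member in any mouse.

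RNA-seq was performed on whole kidneys of 12 mice, 18 days old, labelled C57BL/6 (C57BL/6 J in the methods of the study), in 4 groups of 3. The noncystic mice were Pkd1 RC/+, carrying the hypomorphic RC allele of Pkd1, and were either Pkd2 +/+ (mice 19, 20 and 21) or Pkd2 Δ17/Δ17 (mice 22, 23 and 24). The cystic mice were Pkd1 RC/-, made from an RC allele and a floxed allele removed by Ksp-Cre, and were likewise either Pkd2 +/+ (mice 25, 26 and 27) or Pkd2 Δ17/Δ17 (mice 28, 29 and 30). The study gives the noncystic mice as Pkd1 RC/F, so that + stands for the floxed allele, left intact without Ksp-Cre. Ksp-Cre was thus present only in the cystic groups and cannot be told apart from cystic disease. Every mouse carried the RC allele. Δ17 is a germline deletion of the miR-17 binding motif from the 3′-UTR of Pkd2, present on both alleles of the Δ17/Δ17 mice. Ksp-Cre is driven by the promoter of the kidney-specific cadherin, which is active in tubule epithelium, so the floxed Pkd1 allele remained intact in the other cells of these kidneys. The comparisons ask what cystic disease did to the mitosis genes, and what the loss of the Pkd2 motif did to them in cystic and in noncystic kidneys.

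Cells enter mitosis when the kinase Cdk1, bound to cyclin B, is switched on. Chromosomes then condense, attach to spindle microtubules through their kinetochores, and are held back by the spindle checkpoint until the anaphase-promoting complex, activated by Cdc20, releases them. Most of the genes for these steps are silent in resting cells, where the DREAM complex binds a short promoter element called the CHR (cell cycle genes homology region), and they are switched on together in G2 by the MuvB core with B-Myb and Foxm1. Cells of the adult nephron divide rarely, tubule cells of the young mouse kidney still divide, and proliferation of tubule cells is a known feature of polycystic kidneys.

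The shared promoter element can be seen in the sequences of the members. RefSeq promoter windows of GRCm38.p6, from 250 bases before to 50 bases after the annotated start, were available for 38 of the 47 members, in 40 windows. TTTGAA, the usual form of the CHR, was found on either strand in 29 of the 38 members (76.3%), against 20.2% of the 27025 genes with a window. The other forms searched, also on either strand, were TTCGAA (7.89% of members and 1.8% of genes) and TTTAAA (23.7% and 14.9%). Any of these forms was present in 86.8% of members and 31.9% of genes, and Mad2l1, Nuf2, Nusap1, Melk and Nek2 had none of them in the window. CCAAT, the NF-Y box that often lies upstream of a CHR, was present in 71.1% of members and 41.1% of genes, and 2 or more copies in 52.6% and 13.3%. TTCGAA and TTTAAA read the same on both strands, and matches of different forms may share bases. Within 50 bases of the start, a distance chosen after the positions were seen, TTTGAA or TTCGAA was present in 73.7% of members and 6.12% of genes. The stretches below are shown because they let the element be compared between members that rose together and Spc25, the one that did not. They do not stand for all members that rose. In Mki67 the TTTGAA nearest the start began at -98, and Ccnb1 and Birc5 had only TTTAAA. Each stretch is written on the strand of its gene, with the element in capitals, TTCAAA being TTTGAA read on the other strand.

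Cdk1 (chr10:69352912-69352937): ccgcggcgagTTTGAAactgctggca
Ccnb2 (chr9:70421535-70421560): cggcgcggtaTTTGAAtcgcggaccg
Plk1 (chr7:122159455-122159480): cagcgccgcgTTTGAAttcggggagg
Cdc20 (chr4:118437346-118437371): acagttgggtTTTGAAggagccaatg
Cenpf (chr1:189688069-189688094): cggcgggcagTTTGAAtcgctcgtgc
Prc1 (chr7:80294436-80294461): tctggctcggTTTGAAttccgcgggg
Racgap1 (chr15:99651636-99651661): ggtgcgtgatTTTGAAccggatctgg
Top2a (chr11:99024197-99024222): tagataaaggTTCAAAtgaaactagg
Kif11 (chr19:37376353-37376378): gtctccatttTTCAAAattgaggcgc
Spc25 (chr2:69206174-69206199): cggtggagagTTTGAAattgaaagac

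The element began at position -15 relative to the start in Cdk1, at -18 in Cdc20, at 3 in Cenpf, at 5 in Ccnb2 and at 25 in Spc25. These matches are letters in a window and not measured binding. Spc25 held the same letters as the members around it, with 2 CCAAT boxes in its window.

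Levels are given as CPM, counts per 1000000 reads of a library whose total was scaled by its TMM factor, and differences as log2 fold changes with their standard error (SE) from edgeR's quasi-likelihood test. A gene was called when its edgeR p, adjusted over all 24642 genes by the Benjamini-Hochberg method, was under 0.05. Total counts ran from 18800307 to 24453033 per mouse. Pkd2 stood at 194 to 219 CPM in noncystic Pkd2 +/+ mice, 271 to 286 in noncystic Pkd2 Δ17/Δ17, 213 to 233 in cystic Pkd2 +/+ and 307 to 337 in cystic Pkd2 Δ17/Δ17 mice, so the Δ17 groups lay above the others with no overlap. Pkd1 lay between 50.4 and 81.6 CPM in all 12 mice, and whole-gene counts show neither the RC change nor the loss of the floxed exons in tubule cells alone. Xist, transcribed from the inactive X of females, was at 431 to 811 CPM in 6 mice (19, 22, 23, 25, 26 and 28) and at 5.47 to 7.74 CPM in the others. It was high in 1 noncystic Pkd2 +/+, 2 noncystic Pkd2 Δ17/Δ17, 2 cystic Pkd2 +/+ and 1 cystic Pkd2 Δ17/Δ17 mouse, so it was not balanced between the groups.

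Cystic Pkd2 +/+ kidneys had higher levels of nearly all of the mitosis genes than noncystic Pkd2 +/+ kidneys. Of the 47 members 46 rose, against 16.9% of all genes tested and 26.6% of the 13848 genes whose log2CPM averaged 1 or more. The members that rose did so by 0.82 (Mad2l1) to 1.80 (Kif15) on the log2 scale, or 1.77-fold to 3.47-fold, with edgeR adjusted p from 6.38e-07 to 0.00733. At least 2-fold higher were 42 members, against 5.93% of genes. The median log2 fold change over the 47 members was 1.43, against 0.019 over all genes tested. In 46 members each of the 3 cystic mice lay above each of the 3 noncystic mice, as in 22% of genes. Summed over the 47 members, the level was 655 ± 130 CPM (SD, n = 3) in noncystic and 1563 ± 22.6 CPM in cystic Pkd2 +/+ mice. In whole kidneys, more dividing cells, fewer cells of other kinds and more of these mRNAs per cell cannot be told apart.

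**Figure D1:**
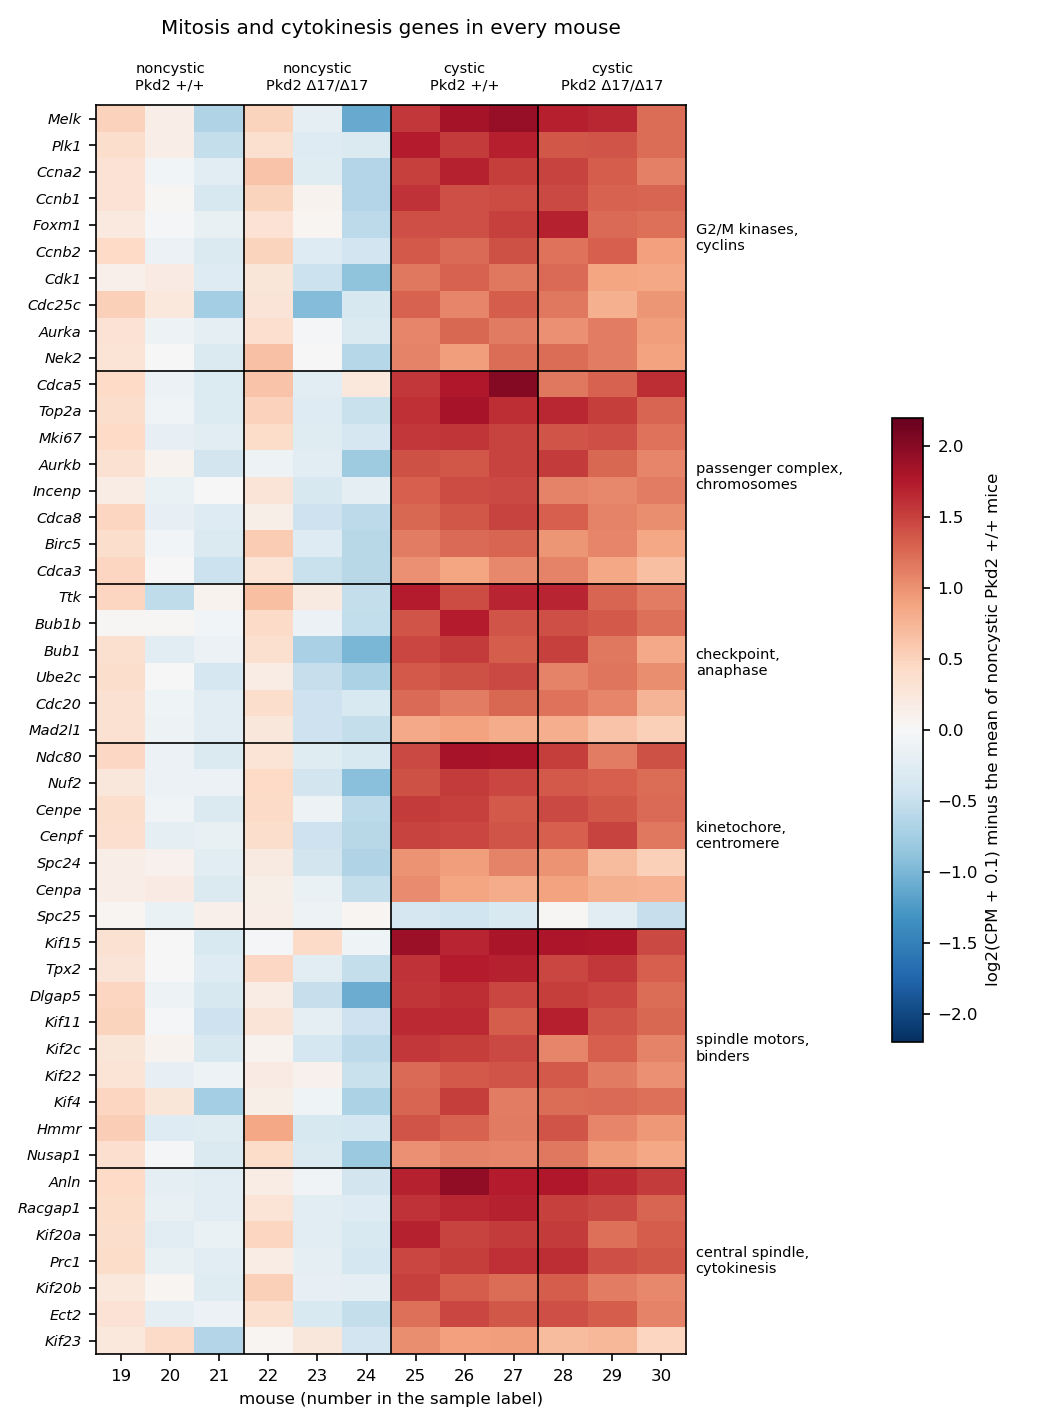
Log2(CPM + 0.1) of each of the 47 members in each of the 12 mice, minus the mean of the 3 noncystic Pkd2 +/+ mice, with genes in rows by role and mice in columns by group (red, higher; blue, lower). The 6 cystic columns are red in every row but Spc25, and mice 19 and 22 are the reddest of the noncystic columns.

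The kinases and cyclins that start mitosis rose in all 10 cases, with a median log2 fold change of 1.37. Cdk1 (chr10:69335146-69352938, GRCm38), the kinase that drives entry into mitosis, was at 21.4, 22.5 and 16.2 CPM in noncystic and 44.2, 48.8 and 44.5 CPM in cystic Pkd2 +/+ mice. Its partner cyclin B1 (Ccnb1) was at 12.7, 10.4 and 7.94 CPM in noncystic and 30.7, 27.4 and 27.5 CPM in cystic mice. The lowest cystic mouse stood well above the highest noncystic mouse in each. Cdk1 rose by 1.20 ± 0.21 (SE, edgeR adjusted p = 0.000244) and Ccnb1 by 1.46 ± 0.21 (edgeR adjusted p = 3.77e-05) on the log2 scale. Plk1, the polo-like kinase of centrosome maturation and mitotic exit, was at 9.19, 7.76 and 4.88 CPM in noncystic and 23.4, 20.7 and 23.1 CPM in cystic mice, a rise of 1.62 ± 0.20 (edgeR adjusted p = 8.88e-06). Foxm1, the transcription factor of G2/M genes, was at 10.9, 9.12 and 8.44 CPM in noncystic and 25.3, 25.5 and 27.03 CPM in cystic mice, a rise of 1.45 ± 0.18 (edgeR adjusted p = 1.26e-05). Within the role the change ran from 1.07 for Nek2, a kinase of centrosome separation, to 1.71 for the kinase Melk. Ccna2 (cyclin A2), Ccnb2, Aurka (the centrosomal Aurora kinase) and the phosphatase Cdc25c lay between them.

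The chromosomal passenger complex and the proteins of mitotic chromosomes, with Cdca3 listed beside them, rose in all 8 cases, with a median of 1.40. The passenger complex corrects faulty attachments and later sits at the midzone. Its kinase Aurkb was at 11.8, 9.87 and 7.07 CPM in noncystic and 24.97, 24.3 and 26.4 CPM in cystic Pkd2 +/+ mice, a rise of 1.40 ± 0.18 (edgeR adjusted p = 1.74e-05). Its scaffold Incenp (chr19:9872296-9899551) was at 19.6, 15.7 and 17.4 CPM in noncystic and 43.5, 47.2 and 47.9 CPM in cystic mice. Incenp had the smallest p of any member, with a rise of 1.39 ± 0.13 (edgeR adjusted p = 6.38e-07). Its subunit survivin (Birc5) was at 17.6, 12.9 and 10.7 CPM in noncystic and 29.4, 32.0 and 32.8 CPM in cystic mice, a rise of 1.19 ± 0.22 (edgeR adjusted p = 0.000482). The remaining subunit, Cdca8 (borealin), rose by 1.34.

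Mki67 (chr7:135689784-135716361), which encodes the Ki-67 protein that coats mitotic chromosomes and is stained as a proliferation marker, was at 72.0, 46.6 and 44.3 CPM in noncystic and 156, 157 and 149 CPM in cystic Pkd2 +/+ mice. Top2a, the topoisomerase that untangles sister chromatids, was at 45.02, 32.6 and 27.98 CPM in noncystic and 106, 122 and 107 CPM in cystic mice. Both separated the groups without overlap, and mouse 19 was the highest of the noncystic mice in both. Mki67 rose by 1.50 ± 0.18 (edgeR adjusted p = 6.74e-06) and Top2a by 1.66 ± 0.20 (edgeR adjusted p = 8.71e-06). Cdca5 (sororin, which protects sister chromatid cohesion) had the largest change of the role at 1.79, and Cdca3 the smallest at 0.94.

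All 6 genes of the spindle checkpoint and of anaphase exit rose, with a median of 1.41. Bub1b, the checkpoint protein BubR1, was at 12.4, 12.4 and 11.7 CPM in noncystic and 32.1, 40.4 and 31.8 CPM in cystic mice, a rise of 1.51 ± 0.17 (edgeR adjusted p = 4.49e-06). Cdc20, which activates the anaphase-promoting complex, was at 28.6, 21.2 and 19.4 CPM in noncystic and 54.4, 49.7 and 54.9 CPM in cystic mice, a rise of 1.20 ± 0.19 (edgeR adjusted p = 9.13e-05). The checkpoint kinase Ttk had the largest change of this role (1.59), followed by the kinase Bub1 (1.44) and the ubiquitin-conjugating enzyme Ube2c (1.37). Mad2l1, the inhibitor of Cdc20, had the smallest at 0.82 ± 0.17.

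At the kinetochore 6 of 7 members rose and 1 fell. The 4 subunits of the Ndc80 complex, which bind the chromosome to microtubules as one rod, did not move alike. Ndc80 was at 6.44, 4.28 and 3.71 CPM in noncystic and 12.97, 16.7 and 16.5 CPM in cystic Pkd2 +/+ mice, a rise of 1.68 ± 0.21 (edgeR adjusted p = 1.26e-05). Nuf2 rose by 1.47 ± 0.23 and Spc24 by 1.0 ± 0.18 (edgeR adjusted p = 8.34e-05 and 0.000343). Spc25 (chr2:69193895-69206194) was instead at 72.1, 63.3 and 76.3 CPM in noncystic and 54.7, 51.6 and 55.5 CPM in cystic mice, so that every cystic mouse lay below every noncystic mouse, as in 19.7% of all genes. It fell by 0.39 ± 0.11 on the log2 scale (edgeR adjusted p = 0.0154), while 14.2% of all genes tested fell. This call was lost with library totals in place of TMM factors (-0.23, edgeR adjusted p = 0.126), without mouse 19 (-0.37, edgeR adjusted p = 0.0501) and without mouse 21 (-0.35, edgeR adjusted p = 0.0538).

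The level of Spc25 also stood apart. Per kilobase of exon it had the highest level of the 47 members in noncystic Pkd2 +/+ kidneys, 22.1 ± 2.08 CPM per kb (SD, n = 3), ahead of Cdc20 at 12.3 ± 2.62 and Ccnb2 at 11.4 ± 3.28. In cystic Pkd2 +/+ kidneys it came after Cdc20 (28.4 ± 1.53) and Ccnb2 (28.03 ± 1.49) at 16.9 ± 0.643 CPM per kb. Cdc20 and Ccnb2 did not differ beyond their spread in either group. No exon of Spc25 overlaps an exon of another annotated gene. The other kinetochore members were Cenpf, at 20.9, 13.9 and 14.4 CPM in noncystic and 45.3, 44.8 and 42.1 CPM in cystic mice (a rise of 1.43 ± 0.20, edgeR adjusted p = 3.58e-05), the motor Cenpe (1.45) and the centromeric histone Cenpa (0.90).

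**Figure D2:**
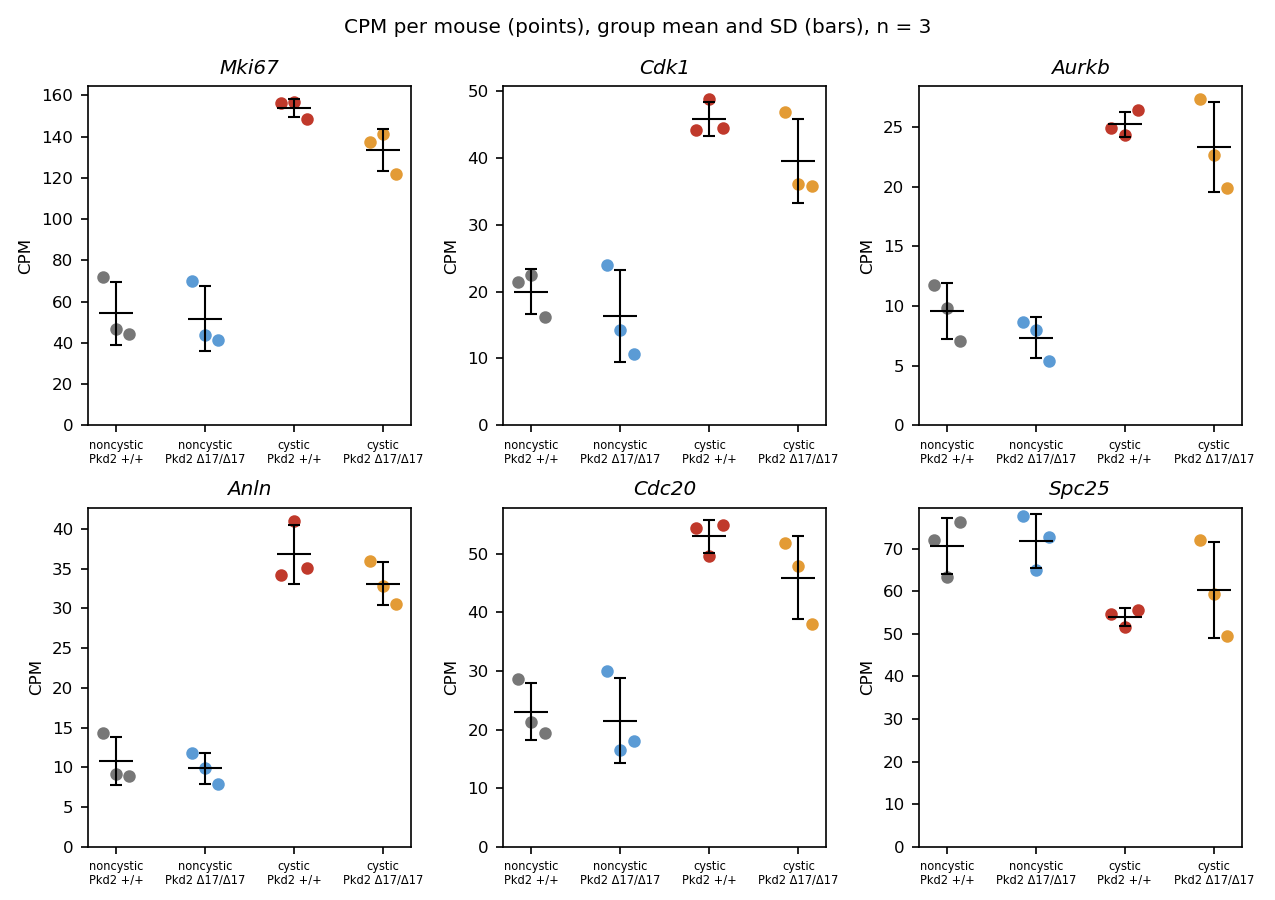
CPM of 6 members in each mouse (points) with the group mean and SD (bars, n = 3), from 0, for the 4 groups. Mki67, Cdk1, Aurkb, Anln and Cdc20 lie higher in all 6 cystic mice than in any noncystic mouse, whereas Spc25 lies lower in cystic than in noncystic Pkd2 +/+ mice and overlaps between the Pkd2 Δ17/Δ17 groups.

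All 9 spindle motors and microtubule binders rose, with a median of 1.50. Kif11, the kinesin that pushes the spindle poles apart, was at 17.3, 11.9 and 8.95 CPM in noncystic and 38.6, 38.5 and 31.1 CPM in cystic mice, a rise of 1.50 ± 0.21 (edgeR adjusted p = 3.13e-05). Kif15, another kinesin of the spindle, had the largest change of all members at 1.80 ± 0.20 but one of the lowest levels, at 0.298 ± 0.0710 CPM per kb in noncystic Pkd2 +/+ kidneys. The spindle assembly factor Tpx2 rose by 1.66, Dlgap5 by 1.53, the microtubule depolymerase Kif2c by 1.50, Kif22 by 1.32, Kif4 by 1.24, Hmmr by 1.23 and Nusap1 by 1.03.

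The 7 genes of the central spindle and of cytokinesis all rose, with a median of 1.52, close to the 1.50 of the spindle motors. Anln (anillin, the scaffold of the contractile ring) was at 14.3, 9.12 and 8.90 CPM in noncystic and 34.2, 41.0 and 35.1 CPM in cystic mice. Racgap1, which forms centralspindlin with Kif23, was at 22.7, 15.3 and 14.2 CPM in noncystic and 51.6, 53.8 and 55.4 CPM in cystic mice. They had the smallest p among members after Incenp, with rises of 1.77 ± 0.17 for Anln (edgeR adjusted p = 7.41e-07) and 1.62 ± 0.16 for Racgap1 (edgeR adjusted p = 1.10e-06). Prc1, which bundles midzone microtubules, was at 11.8, 7.93 and 7.43 CPM in noncystic and 24.8, 25.8 and 27.2 CPM in cystic mice, a rise of 1.52 ± 0.17 (edgeR adjusted p = 2.86e-06). The midzone kinesin Kif20a was at 8.15, 5.19 and 5.60 CPM in noncystic and 20.1, 17.6 and 18.1 CPM in cystic mice, a rise of 1.56 ± 0.20 (edgeR adjusted p = 1.67e-05). Kif23 had the smallest change of the role at 0.89, with Kif20b at 1.36 and Ect2, which acts at the cleavage site, at 1.34. The values of Kif20a are uncertain, since 29.3% of its exon bases overlap Cdc23 on the other strand, and smaller overlaps with a gene on the other strand concern Ube2c (22.8%), Kif4 (15.1%), Cdc25c (12.7%), Ccna2 (12.5%) and Prc1 (11.1%).

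The same comparison in mice that lacked the Pkd2 motif used 6 other mice. Cystic Pkd2 Δ17/Δ17 kidneys were higher than noncystic Pkd2 Δ17/Δ17 kidneys in 46 of 47 members, against 12.8% of all genes tested, and lower in 0, against 10.2%. The changes of these 46 ran from 0.66 (Kif23) to 1.81 (Dlgap5), with edgeR adjusted p from 2.55e-06 to 0.0248, and the median over the 47 members was 1.37. At least 2-fold higher were 40 members (3.69% of genes), and in 46 the groups did not overlap (20.2% of genes). Spc25 was at 77.7, 65.0 and 72.7 CPM in noncystic and 72.0, 59.3 and 49.4 CPM in cystic Δ17/Δ17 mice. Its groups overlapped and its change of -0.25 ± 0.11 was not called (edgeR adjusted p = 0.135).

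Within this comparison Anln was at 11.8, 9.93 and 7.92 CPM in noncystic and 35.9, 32.9 and 30.6 CPM in cystic Pkd2 Δ17/Δ17 mice, a rise of 1.75 ± 0.17 (edgeR adjusted p = 2.55e-06) that was the member with the smallest p here. Prc1 followed, at 9.92, 7.58 and 6.77 CPM against 27.4, 23.7 and 22.9 CPM, with a rise of 1.61 ± 0.17 (edgeR adjusted p = 4.84e-06). Racgap1 was at 20.9, 14.6 and 13.9 CPM against 48.3, 46.9 and 41.7 CPM, with a rise of 1.47 ± 0.16 (edgeR adjusted p = 7.64e-06). All 3 belong to the central spindle and the contractile ring. Mki67 was at 69.8, 43.9 and 41.2 CPM in noncystic and 138, 141 and 122 CPM in cystic mice, a rise of 1.37 ± 0.18. Top2a was at 48.9, 28.4 and 24.6 CPM against 109, 99.1 and 83.8 CPM, a rise of 1.52 ± 0.20. Mouse 22 was the highest noncystic mouse for both and stood below all 3 cystic mice.

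Among the kinases of these Pkd2 Δ17/Δ17 mice, Cdk1 was at 23.98, 14.3 and 10.7 CPM in noncystic and 46.9, 36.1 and 35.8 CPM in cystic kidneys. Ccnb1 was at 14.4, 10.7 and 6.49 CPM against 28.1, 25.1 and 24.97 CPM. Plk1 was at 8.99, 5.78 and 5.61 CPM against 18.3, 18.5 and 16.5 CPM. The groups did not overlap in any of these. Foxm1 was at 11.8, 9.71 and 6.33 CPM against 30.8, 22.5 and 22.1 CPM. Aurkb was at 8.66, 7.96 and 5.39 CPM against 27.4, 22.7 and 19.9 CPM, and Birc5 at 19.8, 11.1 and 8.75 CPM against 26.6, 28.6 and 24.4 CPM. The gap between the groups was thus wider in Aurkb, whose change was 1.67 ± 0.19, than in Birc5, whose change was 1.0 ± 0.22, with edgeR adjusted p of 9.34e-06 and 0.00309.

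For the checkpoint and kinetochore in the Pkd2 Δ17/Δ17 mice, Bub1b was at 16.3, 11.1 and 8.31 CPM in noncystic and 32.7, 31.0 and 28.4 CPM in cystic kidneys. Cdc20 was at 29.9, 16.6 and 18.1 CPM against 51.9, 47.9 and 38.05 CPM. Ndc80 was at 5.78, 3.87 and 3.69 CPM against 13.6, 10.4 and 12.6 CPM. Each cystic mouse exceeded each noncystic mouse in these genes, and in Cenpf, Kif11 and Kif20a. Cenpf was at 21.1, 11.8 and 10.5 CPM against 40.3, 45.1 and 36.1 CPM, Kif11 at 15.04, 10.6 and 8.91 CPM against 40.2, 32.0 and 29.4 CPM, and Kif20a at 8.66, 5.24 and 4.90 CPM against 18.1, 14.4 and 15.7 CPM. The changes of the kinetochore, checkpoint and motor genes named in this paragraph ran from 1.09 for Cdc20 to 1.55 for Kif11.

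**Figure D3:**
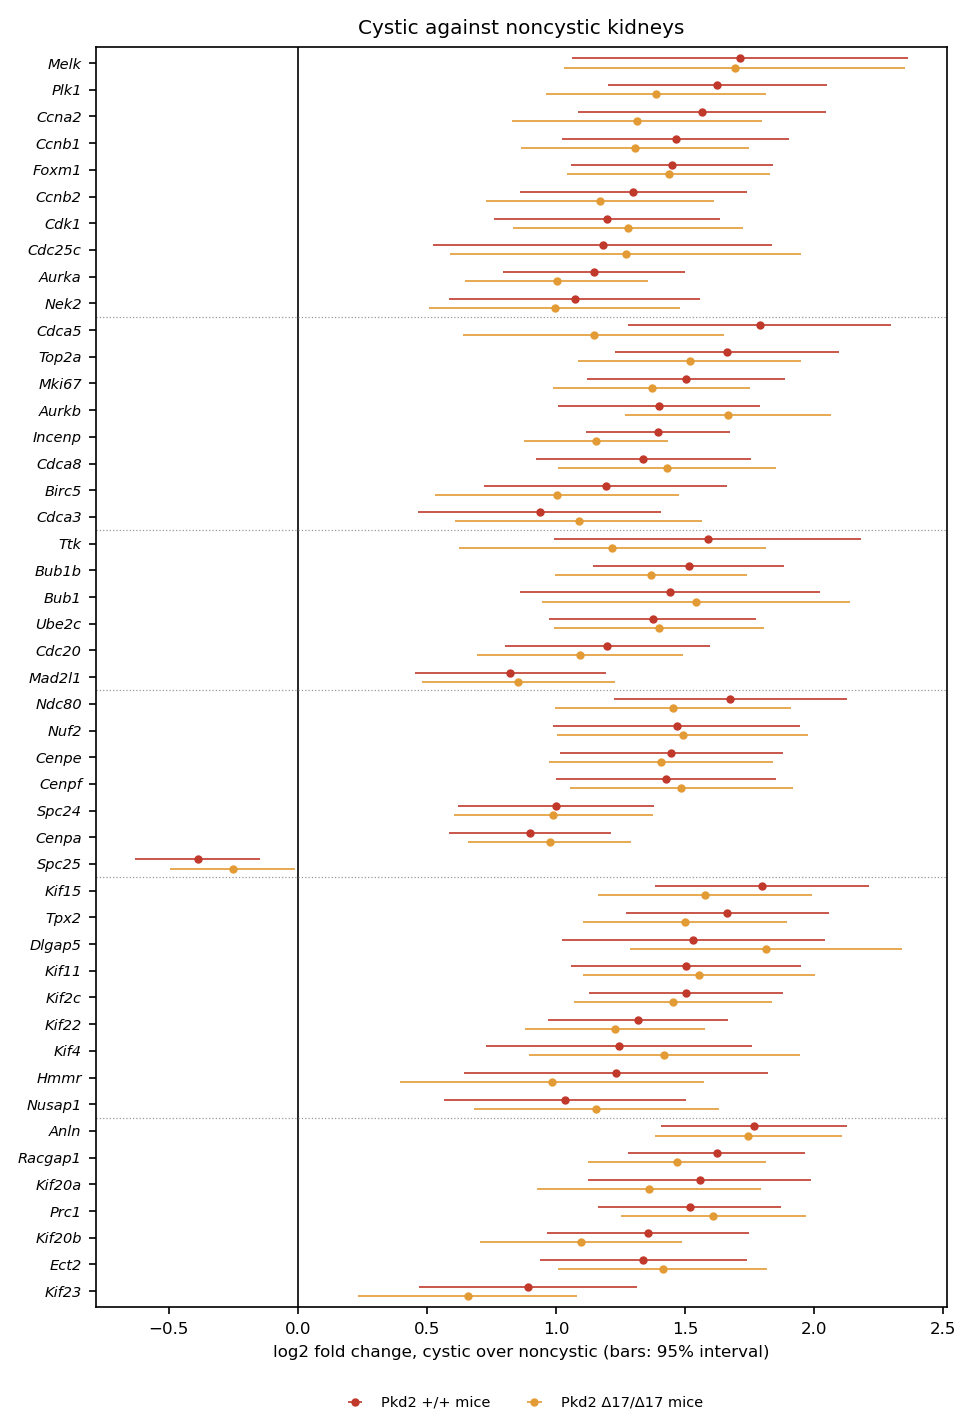
Log2 fold change of each member in cystic over noncystic kidneys with its 95% interval (bars), in Pkd2 +/+ mice and in Pkd2 Δ17/Δ17 mice, by role in the order of the heat map. All points lie to the right of 0 except Spc25, at -0.39 and -0.25.

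Deletion of the Pkd2 motif moved no member past the threshold in cystic kidneys. Of the 47 members 0 were called by edgeR (2.23% of all genes were called, in either direction), and 0 by limma-trend or DESeq2. At an unadjusted p under 0.05 edgeR had 1 member, limma-trend 1 and DESeq2 2, and 14.3% of all genes by edgeR. All 4 groups shared a single estimate of the spread, so these tests and the intervals below also carry the spread of the noncystic mice. Fitted on the cystic groups alone, edgeR had 12 members at an unadjusted p under 0.05 and called 0 (by adjusted p 0.405% of all genes rose and 0.278% fell). The share of all genes at an unadjusted p under 0.05 was not computed for this fit, so the 12 members cannot be set against it. The lack of calls does not show that no member differed. Of the 47 members 46 had a log2 fold change below 0, against 49.8% of all genes, with a median of -0.19. The members varied together among mice, so these are not 46 separate observations. The changes ran from -0.42 (Cdca5) to 0.16 (Spc25), and no 95% interval extended below -0.90 or above 0.47. In 12 members every cystic Pkd2 Δ17/Δ17 mouse lay below every cystic Pkd2 +/+ mouse, as in 10.2% of genes, and in 0 above, as in 8.79%. Summed over the members, the 3 mice stood at 1545, 1588 and 1554 CPM with the motif and at 1506, 1399 and 1246 CPM without it. Mouse 30 was the lowest of its group in 41 members and mouse 28 the highest in 34. Without mouse 30 the median was -0.10, and without mouse 28 it was -0.25, the extremes over the mice left out in turn. With Xist as a covariate the median was -0.10 and 37 members lay below 0.

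Incenp was the one member with an unadjusted p under 0.05. It was at 43.5, 47.2 and 47.9 CPM in cystic Pkd2 +/+ and 37.2, 36.3 and 38.2 CPM in cystic Pkd2 Δ17/Δ17 mice, which did not overlap. The difference was -0.31 ± 0.13 (95% interval -0.58 to -0.043, edgeR adjusted p = 0.259). Mki67, at 156, 157 and 149 CPM with the motif and 138, 141 and 122 CPM without it, also did not overlap. Its difference of -0.21 ± 0.17 had an interval from -0.58 to 0.16 (edgeR adjusted p = 0.669). The values of Plk1, Birc5 and Racgap1 likewise separated the groups, with differences of -0.33, -0.24 and -0.23 and intervals that reached 0.066, 0.21 and 0.094. Cdk1, Ccnb1, Aurkb, Top2a, Bub1b, Cdc20, Cenpf, Ndc80, Kif11, Kif20a, Prc1, Anln and Foxm1 overlapped between the cystic groups, and their differences ran from -0.34 for Ndc80 to -0.043 for Foxm1. Spc25 had the opposite sign, with 54.7, 51.6 and 55.5 CPM with the motif and 72.0, 59.3 and 49.4 CPM without it, overlapping groups and a difference of 0.16 (interval -0.083 to 0.40). The comparison shares its cystic Pkd2 +/+ mice with the first comparison above, so the values of both are given side by side and were not related to each other. For Mki67 they were 1.50 for cystic disease and -0.21 for the deletion, and for Anln 1.77 and -0.15.

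In noncystic kidneys no member passed the threshold, and this comparison called almost no gene. Pkd2 itself, whose groups were fully apart, was not called (0.40 ± 0.08, edgeR adjusted p = 0.771), so the lack of calls does not show that no member differed. Of the 47 members 0 were called by edgeR, where 0.00406% of all genes were called, and 0 by limma-trend or DESeq2. No member reached an unadjusted p under 0.05 with any of these tools, against 6.31% of all genes by edgeR. The median was -0.10, 38 members lay below 0 (48.6% of genes), and the changes ran from -0.44 (Dlgap5) to 0.22 (Cdca5), with 95% intervals that spanned -1.07 to 0.75 at their extremes. In 0 members were the groups apart, and 5.09% of all genes lay lower and 5.69% higher without overlap. The summed level was 799, 619 and 546 CPM with the motif and 809, 546 and 475 CPM without it. Each noncystic group thus held 1 mouse well above the others: mouse 19 was the highest of its group in 43 members and mouse 22 in 45. Both are Xist-high, as is mouse 23, which was the highest of its group in 2. With Xist as a covariate the noncystic median was -0.17 and 45 members lay below 0. In that setting 2 members had an unadjusted p under 0.05 and 0 were called. Without mouse 22 the median fell to -0.40 and 26 members had an unadjusted p under 0.05 with 0 called. The share of all genes at an unadjusted p under 0.05 was not computed for these settings, so these counts cannot be set against it. Without mouse 19 the median was 0.082.

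**Figure D4:**
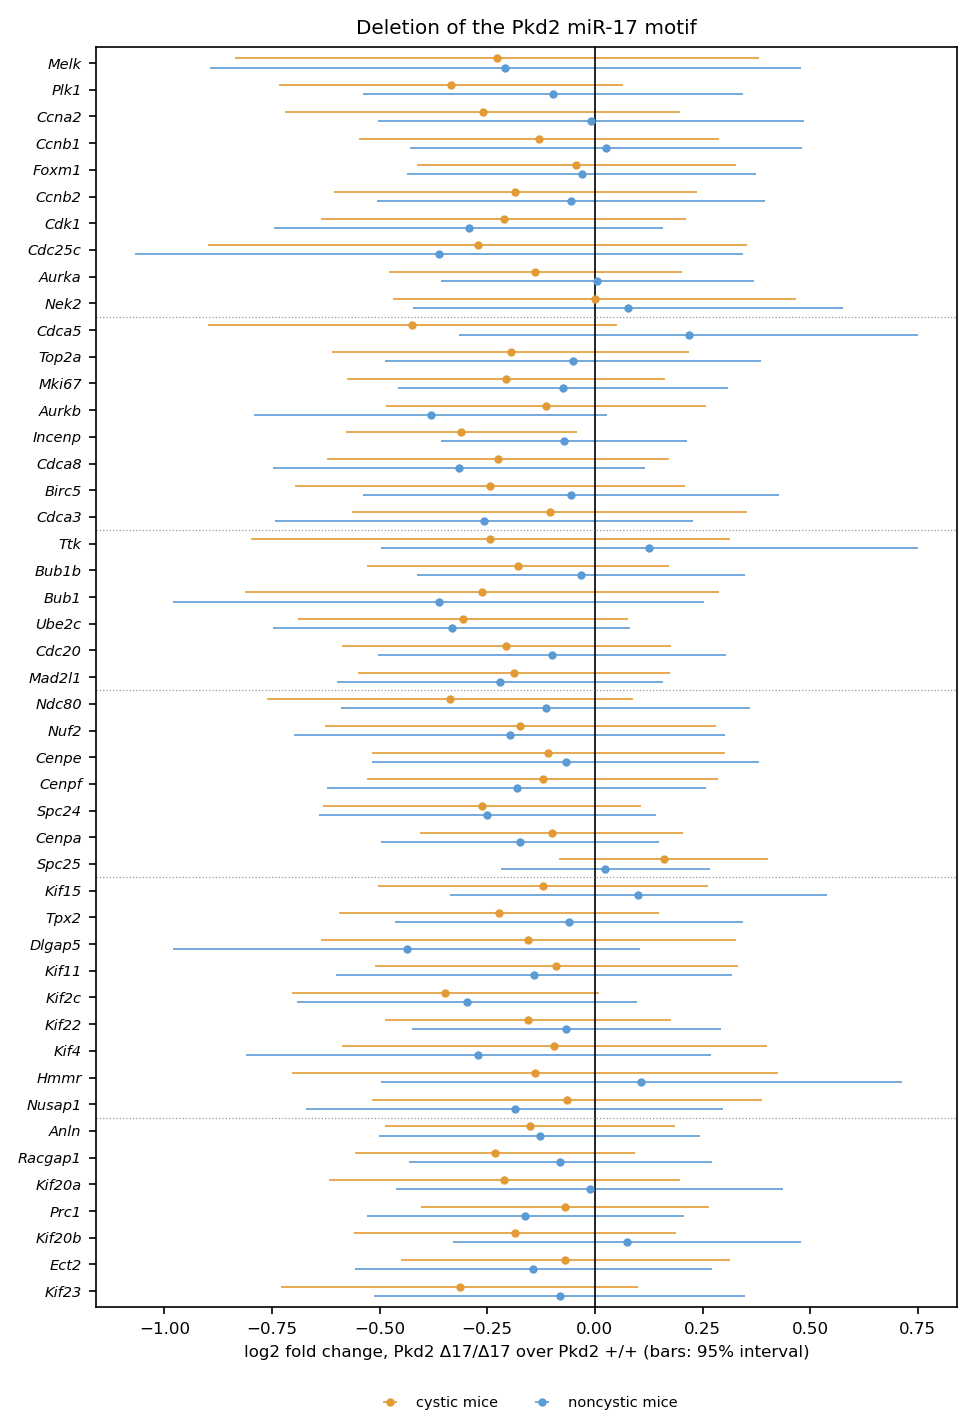
Log2 fold change of each member in Pkd2 Δ17/Δ17 over Pkd2 +/+ mice with its 95% interval (bars), in cystic and in noncystic kidneys. The cystic points lie left of 0 for 46 members, with intervals that cross 0 for every member but Incenp, and the noncystic intervals all cross 0.

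The effect of the deletion in cystic kidneys minus that in noncystic kidneys was tested as an interaction. By edgeR 0 of 47 members were called (0.0122% of genes) and 0 had an unadjusted p under 0.05 (8.33% of genes), with 0 of either also by limma-trend and DESeq2. The median was -0.050, the values ran from -0.64 ± 0.34 (Cdca5) to 0.28 ± 0.34 (Dlgap5), and the 95% intervals of the members spanned -1.36 to 1.03 at their extremes. The median went from -0.26 without mouse 19 to 0.23 without mouse 22, so its sign changed with the noncystic mouse left out. Its sign also changed with Xist as a covariate, where the median was 0.12. In that setting 13 members lay below 0, against 29 in the main setting, and 0 were called.

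The members also varied together among mice of the same group. Over deviations from the group means in the 12 mice, the correlation of a member with the mean of the other members had a median of 0.918 for the 46 members other than Spc25, from 0.409 for Kif15 to 0.985 for Nusap1, and was 0.307 for Spc25. These mice share their library for all members, so the values describe the libraries and no test was made. The lowest after Spc25 and Kif15 were Kif23 (0.536) and Cdca5 (0.546), both with a rise in cystic kidneys.

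Other genes of cell division showed how far the pattern of the members reached. Of 78 further mitosis genes, 69 rose and 1 fell in cystic Pkd2 +/+ kidneys, with a median of 1.19. Of all genes tested 16.9% rose and 14.2% fell. Their smallest p belonged to the condensin subunit Ncapd2 (1.24), Gtse1 (2.06), the separase gene Espl1 (1.60) and the checkpoint gene Kntc1 (1.71). The gene that fell was Pttg1, the securin that holds separase in check, by 0.53 ± 0.08 (edgeR adjusted p = 0.00012). With Pkd2 Δ17/Δ17 in both groups the counts were again 69 and 1 (12.8% and 10.2% of all genes), and Pttg1 fell by 0.44 ± 0.08. Of 50 genes of DNA replication and S phase, 46 rose, with a median of 0.98, led by the helicase subunits Mcm5 (1.58) and Mcm2 (1.17), Uhrf1 (1.83) and the DNA ligase Lig1 (1.41). In Pkd2 Δ17/Δ17 mice 44 of the 50 rose.

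Of 27 genes of G1 control and of the DREAM complex, 16 rose and 3 fell in cystic Pkd2 +/+ kidneys, with a lower median of 0.31. Of all genes tested 16.9% rose and 14.2% fell. Those with the smallest p were Trp53 (0.84), the E2F partner Tfdp1 (0.74), the G1 kinase Cdk4 (0.68) and the pocket protein Rbl1 (0.89). Those that fell were the CDK inhibitor Cdkn1c (-1.46 ± 0.27), the MuvB subunit Lin52 (-0.54) and E2f5 (-0.29). In Pkd2 Δ17/Δ17 mice 13 of the 27 rose and 0 fell, against 12.8% and 10.2% of all genes. The lowest change there was -0.32, so the falls were not called again. The deletion in cystic kidneys called 0 of the 78 further mitosis genes (4 at an unadjusted p under 0.05) and 0 of the 50 S-phase genes (3 at an unadjusted p under 0.05) by edgeR, with medians of -0.12 and -0.10. Of all genes 2.23% were called and 14.3% had an unadjusted p under 0.05 by edgeR. Of the G1 and DREAM list it called 1, Cdkn1c, which rose by 1.37 ± 0.27 (edgeR adjusted p = 0.0153). This rise and the fall of Cdkn1c above share the same cystic Pkd2 +/+ mice, so they are not independent.

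Markers of the cells in the kidney moved with the same groups. Of all genes tested 16.9% rose and 14.2% fell in cystic Pkd2 +/+ kidneys, and the deletion in cystic kidneys called 2.23%. All 10 macrophage markers rose in cystic Pkd2 +/+ kidneys, with a median of 1.79, and their summed level was 159 to 172 CPM in noncystic and 381 to 542 CPM in cystic mice. None of these 10 was at 0 in any group. All 10 proximal tubule markers fell, with a median of -1.25, and their sum went from between 8929 and 11056 CPM to between 3382 and 4695 CPM. Of 7 endothelial markers 4 fell and 0 rose, and of 8 fibroblast markers 4 rose and 2 fell. Of 8 lymphocyte markers 2 rose and 1 fell, and their sum was at most 13.7 CPM. Of the other lists, 6 of 8 markers of the thick ascending limb and distal tubule fell and 1 rose, 4 of 9 of the collecting duct rose and 1 fell, 5 of 6 of podocytes fell and 1 rose, and 6 of 7 of red blood cells fell. Of 4 neutrophil markers tested 0 were called (1 at an unadjusted p under 0.05), with Mpo at 0 in noncystic Pkd2 Δ17/Δ17 and Elane at 0 in both cystic groups. Of 5 markers of nephron progenitors 3 fell and 0 rose. With the deletion in cystic kidneys 4 macrophage markers fell (C1qa, C1qb, C1qc and Cd68) and 3 proximal tubule markers rose (Aqp1, Lrp2 and Cubn). The macrophage sum was 282 to 373 CPM and the proximal tubule sum 4499 to 5965 CPM. Of the 8 thick ascending limb and distal tubule markers 2 rose (Slc12a1 and Cldn10). Their sum was 2096 to 2701 CPM in cystic Pkd2 +/+ and 3742 to 3983 CPM in cystic Pkd2 Δ17/Δ17 mice. No marker of the other lists was called for the deletion. The marker changes with cystic disease and with the deletion share the cystic Pkd2 +/+ mice, so they are not independent. The part of these cell types in the values of the mitosis genes was not tested.

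**Figure D5:**
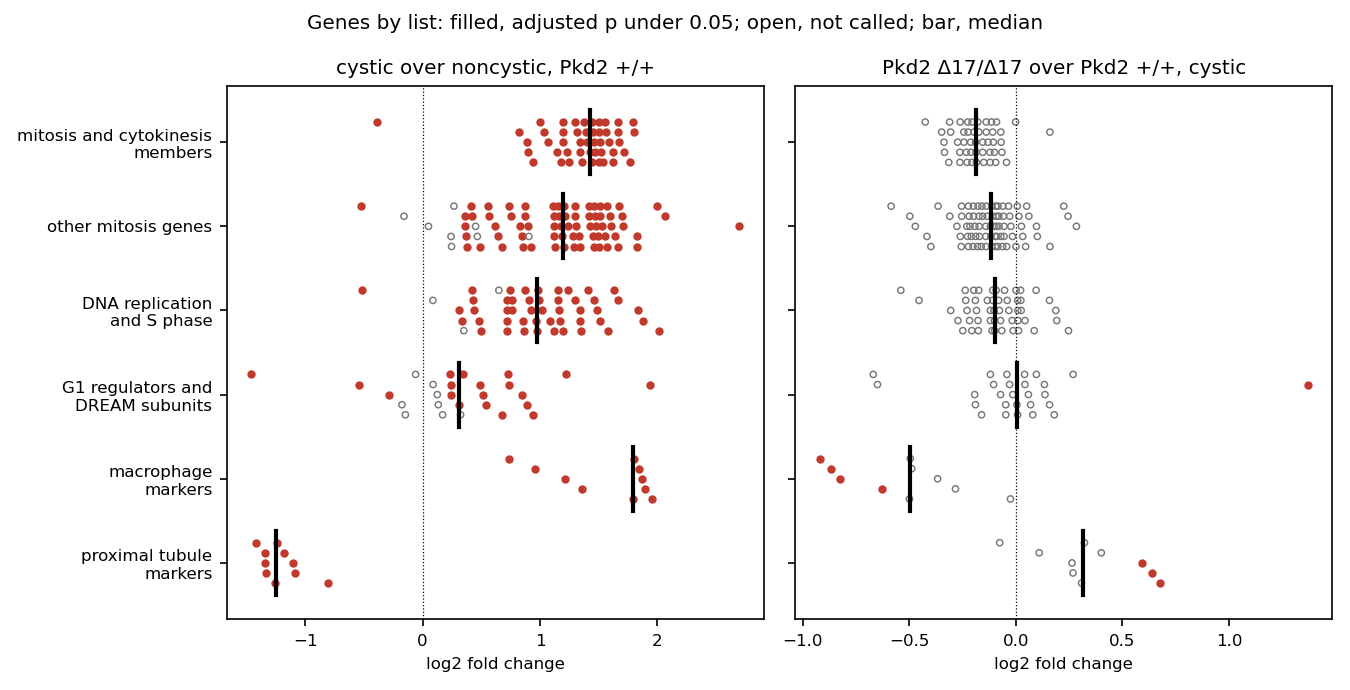
Log2 fold change of every gene of 6 lists (points; filled, called by edgeR; open, not called; bar, the median of the list), for cystic over noncystic Pkd2 +/+ kidneys on the left and Pkd2 Δ17/Δ17 over Pkd2 +/+ in cystic kidneys on the right. On the left the mitosis genes have a median of 1.43 and on the right of -0.19, where all 47 points are open.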

How the data were processed

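Total RNA of whole kidneys of 12 mice was sequenced as pairs of reads. Per the submitters' processing notes and the methods of the study, the authors trimmed reads with Trim Galore 0.6.3, aligned them to GRCm38 with STAR 2.5.3a, counted reads per gene with STAR against Ensembl gene models, and deposited raw whole-number counts, not normalized, for 54532 genes. The strand column used is not given in the sources used here, so overlapping genes are named as uncertain. All 12 columns were mapped to mice by their labels, and 343 genes without a name held 0.0225% of the reads. Mice of one group differed beyond sampling noise, with a chi-square per degree of freedom of 8.88 to 24.3, so each counted as 1 replicate.

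Counts were analysed in R 4.3.3. Genes whose log2CPM averaged -3 or more, the cutoff of the study, were tested with edgeR 4.0.16 (quasi-likelihood test, TMM factors, one mean per group over all 12 mice, Benjamini-Hochberg adjustment over 24642 genes, threshold 0.05). Among the 13848 genes whose log2CPM averaged 1 or more, the median SE was 0.11. Alternatives were limma-trend with library totals (limma 3.58.1, the test of the study, prior count 3), DESeq2 1.42.0, other scalings and cutoffs, the compared groups alone, Xist as a covariate and leaving out each mouse. Chosen after the data were seen were leaving out mice 19 and 22 together and a cutoff at a mean log2CPM of 1. The scripts were tested on simulated counts. Exon overlaps and lengths came from GENCODE models of GRCm38, which held 54409 of the 54532 gene identifiers.

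The members, the other lists and the tests were chosen with earlier results of these data known. Values in every mouse are given for 16 members set by name and, per comparison, for the 3 called members with the smallest p in each direction, or all where 5 or fewer were called. Other lists are given by counts with up to 4 examples, those with the smallest p, and 1 gene of these lists is not reported here.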

Additional observations from a re-analysis of the deposited data

How the results depend on the processing

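The rise of the members in cystic kidneys was called for 46 of 47 in Pkd2 +/+ mice under every alternative run, with medians from 1.29 (without mouse 21) to 1.59 (without mouse 19, and with limma-trend), and for 44 to 46 in Pkd2 Δ17/Δ17 mice with each mouse left out in turn. Those lost in the latter were Kif23 (without mouse 22, 24, 28 or 29) and Hmmr (without mouse 23, 24 or 28). Spc25 decided the count of members that fell. In Pkd2 +/+ mice this count was 1, but 0 with limma-trend and library totals (Spc25 at -0.23, adjusted p = 0.137), 0 with library totals in edgeR, and 0 to 1 over the mice left out in turn. In Pkd2 Δ17/Δ17 mice it was 0, but 1 with no cutoff on low counts (Spc25 at -0.25, edgeR adjusted p = 0.0437) and 0 to 1 over the mice left out (1 without mouse 28, Spc25 at -0.40, edgeR adjusted p = 0.0141). Library totals moved the median of the genes whose log2CPM averaged 1 or more from 0.041 to 0.20 and that of the members from 1.43 to 1.58, where the TMM factors of noncystic mice were 0.933 to 0.972 and those of cystic mice 1.04 to 1.08.

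No alternative called a member for the deletion. In cystic kidneys the count at an unadjusted p under 0.05 was 14 with no cutoff and 12 with the compared groups only. The smallest edgeR adjusted p were 0.0869 and 0.0982. The share of all genes at an unadjusted p under 0.05 was not computed for the alternatives. By adjusted p 1.19% of all genes rose and 1.04% fell in the main setting. With no cutoff these shares were 2.46% and 2.48%, and with the compared groups only 0.405% and 0.278%. In noncystic kidneys the median of the members ran from -0.40 (without mouse 22) to 0.082 (without mouse 19), against an SD of 0.278 between mice of one group in the mean log2CPM of the members. Without mice 19 and 22 together the noncystic median was -0.22, and the rise in cystic kidneys was called for 46 members in Pkd2 +/+ and 45 in Pkd2 Δ17/Δ17 mice. In that setting the deletion in cystic kidneys had 10 members at an unadjusted p under 0.05 and 0 called (smallest edgeR adjusted p = 0.109). By adjusted p 0.88% of all genes rose and 0.734% fell there. No paired analysis was possible because the numbers in the labels count the mice from 19 to 30 and no groups share one. The lowest member, Cdc25c, had 20 to 145 reads per mouse, and its SE of 0.31 was the widest of the cystic comparison in Pkd2 +/+ mice. The causes of these shifts were not tested unless given.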
